A study of Mus musculus with 6 samples.

Results

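Myosin heavy chain (MHC) isoforms were examined in RNA-Seq libraries of the tibialis anterior (TA) muscle, a fast muscle of the lower hind limb. The 7 genes are Myh1, Myh2, Myh3, Myh4, Myh7, Myh7b and Myh8, chosen by their symbols as the sarcomeric heavy chains of limb muscle, out of 16800 genes with a listed TPM and 45777 genes with a count. TPM, a transcript abundance scaled to a fixed library total, is corrected for gene length, so it allows levels of different genes to be compared. All 7 genes had a count in all 6 libraries and passed the filter on low counts.

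The libraries came from male C57BL/6J mice labelled as 24 months old, and the study's text also gives higher ages for them. Both groups of 3 mice were injected intraperitoneally every 24 h for 4 weeks. The control group received vehicle (DMSO with Tween 80) and the treated group received 5 mg/kg BML-260, the small molecule that the study used to inhibit the phosphatase DUSP22. No young or untreated mice were among these libraries, so the comparison is between treated and vehicle-treated old muscle. The libraries were made from total RNA of the whole muscle, in which fewer fibers of a type and less RNA per fiber cannot be told apart.

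Each sarcomeric heavy chain is a motor protein of the thick filament, and the isoform that a fiber makes sets much of its speed of contraction. In adult limb muscle, Myh7 encodes the slow type 1 chain, Myh2 the fast 2A chain, Myh1 the fast 2X chain and Myh4 the fast 2B chain, the fastest of the set. Myh3 and Myh8 encode the embryonic and the perinatal chain, which are made before birth and around it and are made again in regenerating fibers. Myh7b is an ancient slow-type gene whose transcript in mammals is largely known as the host of a microRNA.

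On chromosome 11 of the assembly GRCm38, 5 of the genes stand side by side, all on the plus strand. Their order is Myh3 (chr11:67078300-67102291), Myh2 (chr11:67171027-67197517), Myh1 (chr11:67200052-67224575), Myh4 (chr11:67238029-67260446) and Myh8 (chr11:67277124-67308634), followed by Myh13, the heavy chain known from eye and laryngeal muscle. Myh2 ends 2.5 kb before Myh1 begins, whereas Myh3 is set apart from Myh2 by a stretch that holds the long noncoding RNA gene 2310065F04Rik on the minus strand. Myh7 lies on chromosome 14 (chr14:54970684-54994626, minus strand) and Myh7b on chromosome 2 (chr2:155611212-155634307, plus strand). The 250 bases upstream of the RefSeq start of the 5 clustered genes (GRCm38.p6, plus strand, 5′ to 3′) are given here because these neighbors differed widely in level and in fold change. Capitals mark a run of 14 bases, TTCTAATTATATCC, and the TATA motif TATAAAA.
Myh4: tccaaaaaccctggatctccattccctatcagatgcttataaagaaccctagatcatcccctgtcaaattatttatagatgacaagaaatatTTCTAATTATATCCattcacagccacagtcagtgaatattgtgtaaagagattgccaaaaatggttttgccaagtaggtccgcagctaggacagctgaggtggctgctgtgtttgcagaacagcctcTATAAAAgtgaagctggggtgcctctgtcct
Myh1: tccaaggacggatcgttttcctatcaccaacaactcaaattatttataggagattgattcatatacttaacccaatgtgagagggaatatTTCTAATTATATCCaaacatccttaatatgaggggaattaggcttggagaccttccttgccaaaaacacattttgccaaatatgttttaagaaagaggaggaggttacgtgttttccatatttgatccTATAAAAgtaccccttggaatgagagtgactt
Myh2: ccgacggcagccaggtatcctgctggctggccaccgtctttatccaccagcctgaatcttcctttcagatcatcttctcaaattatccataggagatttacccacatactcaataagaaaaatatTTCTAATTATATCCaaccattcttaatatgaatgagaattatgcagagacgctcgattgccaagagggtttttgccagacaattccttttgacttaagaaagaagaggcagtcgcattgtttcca
Myh8: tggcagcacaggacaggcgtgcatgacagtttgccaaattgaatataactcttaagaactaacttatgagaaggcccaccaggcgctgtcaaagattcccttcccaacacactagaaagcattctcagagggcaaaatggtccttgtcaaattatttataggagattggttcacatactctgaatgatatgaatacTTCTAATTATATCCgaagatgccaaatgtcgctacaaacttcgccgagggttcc
Myh3: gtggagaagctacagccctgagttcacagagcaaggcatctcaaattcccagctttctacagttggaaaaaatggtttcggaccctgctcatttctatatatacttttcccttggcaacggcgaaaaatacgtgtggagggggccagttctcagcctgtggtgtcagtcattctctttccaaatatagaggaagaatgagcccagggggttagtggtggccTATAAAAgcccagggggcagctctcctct
These windows were chr11:67237562-67237811 for Myh4, chr11:67199852-67200101 for Myh1, chr11:67170777-67171026 for Myh2, chr11:67276874-67277123 for Myh8 and chr11:67078050-67078299 for Myh3.

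The 14-base run was picked as the longest common to the windows of Myh4, Myh1, Myh2 and Myh8, so its presence there was fixed beforehand. It occurred in 4 of 32851 mouse promoter windows in all (0.0122%, both strands searched), which is a description and no test of enrichment. It began 158 bases before the start of Myh4, 160 before Myh1, 125 before Myh2 and 54 before Myh8. A longer run of 20 bases around it, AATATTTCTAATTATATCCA, was found in 3 windows in all, those of Myh4, Myh1 and Myh2. It was likewise picked as the longest run common to these 3 windows. TATAAAA stood 29 to 32 bases before the start of Myh3, Myh1 and Myh4, and in 4.98% of all windows. A match to the MEF2 motif, which does not overlap the 14-base run, was found in the windows of Myh1, Myh4 and Myh8 (1.69% of all windows), and a match to the CArG box in that of Myh4 (1.47%). The E-box CANNTG was found in 66.2% of all windows, which included those of Myh3, Myh4 and Myh8. The window of the embryonic gene Myh3 thus held the TATA motif, as did those of Myh1 and Myh4, but not the 14-base run. These are matches of letters and not measured binding sites.

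The heavy chains are alike in sequence, which matters for how reads are assigned. The coding sequences of Myh1 and Myh2 were identical at 91.0% of aligned bases, those of Myh1 and Myh4 at 90.1%, and those of Myh4 and Myh8 at 87.9%. Of all 100-base windows of the longest transcript, 9.46% in Myh1, 9.17% in Myh2, 5.17% in Myh8 and 3.85% in Myh4 were found unchanged in another of the 7 genes. No window of Myh3, Myh7 or Myh7b was shared in this way. How reads with several matches and reads of the opposite strand were counted is not given in the sources used here. Values of the fast isoforms and of Myh8 are uncertain to that extent. This weighs most on Myh8, because 1.47% of Myh4 windows and 2.66% of Myh1 windows were found in it. Mean levels over the 6 libraries were 9730 TPM for Myh4, 3440 TPM for Myh1 and 131 TPM for Myh8. The part of shared reads in the level of Myh8 was not tested. Antisense genes overlap Myh1 (Myhas), Myh2 (9430073C21Rik) and Myh7 (Mhrt, Gm29015 and Gm31251), and the protein-coding genes Gm17428 and Trpc4ap overlap Myh7 and Myh7b on the other strand.

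The vehicle libraries held 47814115, 39793301 and 52165766 counts and the BML-260 libraries 56998875, 47740677 and 39522890 (replicates 1, 2 and 3). Vehicle replicate 3 stood apart: the mean correlation across genes of its log2 CPM with the other libraries was 0.944, against 0.968 to 0.973 for the other 5. Of the 7 heavy chains, 4 were highest in this library and Myh4 was lowest in it, so results are given with and without it where it decides them. Markers of skeletal myofibers (6 of 6 detected, summed at 113256 to 160945 CPM in vehicle and 133478 to 160552 CPM in BML-260) were abundant in every library, and cardiac markers were at 1.21 to 5.63 CPM in sum, with Myl7 at 0 in every library. The transcript of Dusp22, the reported target of BML-260, was at 32.7 to 36.9 TPM with vehicle and 25.6 to 35.1 TPM with BML-260. Its edgeR log2 fold change was 0.23 (SE 0.24), and -0.0054 without vehicle replicate 3. The TPM values were lower on average with BML-260, so the direction differed between TPM and counts and was not settled.

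The fast 2B gene Myh4 was the most abundant heavy chain in every library. Its TPM was 8721, 9581 and 7053 in the vehicle libraries (8452 ± 1285, SD, n = 3) and 9004, 11008 and 13015 in the BML-260 libraries (11009 ± 2005, SD, n = 3). The group ranges overlapped, with BML-260 replicate 1 below vehicle replicate 2. Myh1, the 2X gene, was next at 2576, 4590 and 4283 TPM in vehicle (3816 ± 1085, SD, n = 3) and 2645, 3323 and 3224 TPM in BML-260 (3064 ± 366, SD, n = 3). For Myh1 replicate 1 of each group was the lowest and the BML-260 libraries fell inside the vehicle range. The 2A gene Myh2 was at 266, 355 and 1207 TPM in vehicle and 282, 505 and 478 TPM in BML-260. Its level in vehicle replicate 3 was 3.89 times the mean of the other vehicle libraries, and all BML-260 values lay between the lowest and the highest vehicle library.

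Perinatal Myh8 was at 101, 156 and 129 TPM in vehicle and 109, 128 and 164 TPM in BML-260, the narrowest spread of the 7 genes, with the highest library 1.62 times the lowest. Embryonic Myh3 was far lower, at 3.94, 7.63 and 17.1 TPM in vehicle (9.54 ± 6.77, SD, n = 3) and 3.04, 1.47 and 2.97 TPM in BML-260 (2.50 ± 0.887, SD, n = 3). Every BML-260 library was below every vehicle library for Myh3, and vehicle replicate 3 was the highest. Of all tested genes with a TPM, 7.53% were lower in this way.

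The slow gene Myh7 was at 0.278 and 0.355 TPM in vehicle replicates 1 and 2 but at 25.4 TPM in vehicle replicate 3, with 1.96, 3.42 and 2.38 TPM in BML-260. The counts behind these values were 53, 53 and 4198 in vehicle and 428, 571 and 325 in BML-260. The BML-260 libraries therefore lay between both extremes of the vehicle group, which spanned 91.3-fold, whereas they themselves spanned 1.74-fold. Myh7b, at 0.193, 0.192 and 0.713 TPM in vehicle and 0.298, 0.378 and 0.469 TPM in BML-260, likewise placed the BML-260 libraries between vehicle replicates 1 and 2 and vehicle replicate 3, on counts of only 28 to 120.

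By mean TPM the order was Myh4, Myh1, Myh2, Myh8, Myh3, Myh7 and Myh7b. Each of the first 4 genes was above the next in 6 of 6 libraries, without overlap of their ranges. Myh3 and Myh7, with means of 6.02 and 5.62 TPM, did not differ beyond their spread: Myh3 was above Myh7 in 4 of 6 libraries. Myh7 was above Myh7b in 6 of 6 libraries although their ranges overlapped.

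**Figure D1:**
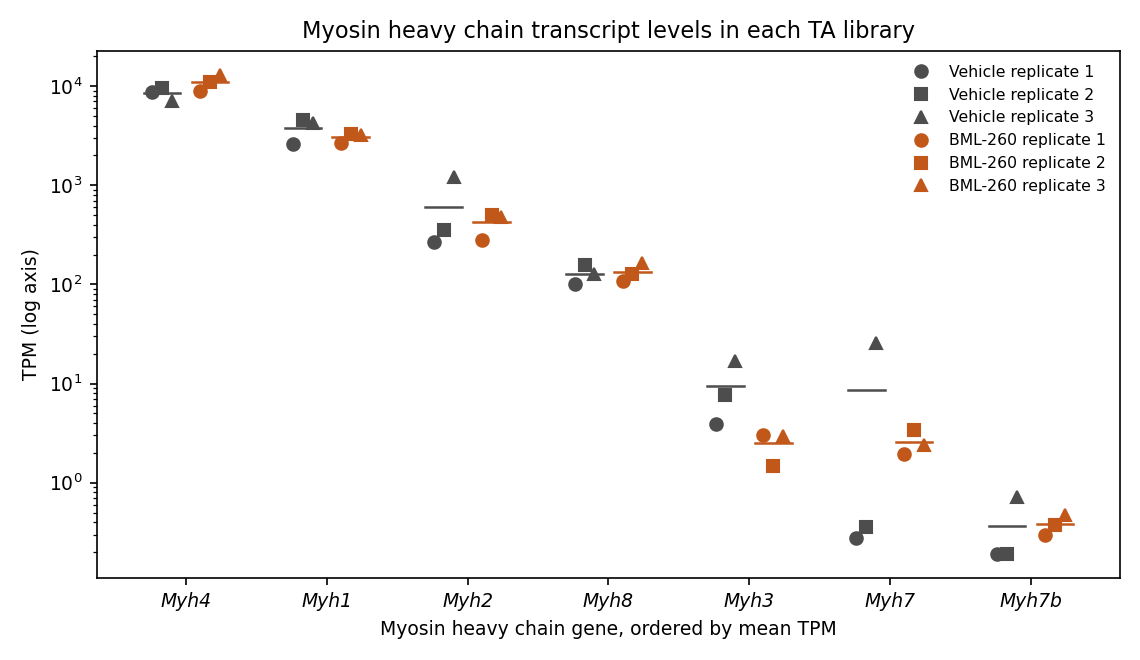
TPM on a log axis of the 7 heavy chain genes in the 3 vehicle (grey) and 3 BML-260 (orange) libraries, each symbol being a library and each line a group mean. Myh3 is the gene whose groups are separate, and Myh7 in vehicle replicate 3, at 25.4 TPM, lies far above the other vehicle libraries.

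Set as shares of the summed TPM of the 7 genes, the 3 adult fast isoforms made up 98.6% to 99.1% of heavy chain transcripts in each library. Myh4 held 74.7%, 65.2% and 55.5% in the vehicle libraries and 74.7%, 73.5% and 77.1% in the BML-260 libraries. Myh1 held 22.1%, 31.2% and 33.7% in vehicle and 22.0%, 22.2% and 19.1% in BML-260. The treated libraries and vehicle replicate 1 were thus close to each other in composition, and vehicle replicates 2 and 3 held less Myh4 and more Myh1. For Myh4 the mean share was 65.1% ± 9.64 in vehicle and 75.1% ± 1.80 in BML-260 (SD, n = 3 each), a difference of 9.97 percentage points (exact permutation test, two-sided, p = 0.2) that was 5.14 without vehicle replicate 3 and 14.8 without vehicle replicate 1. That of Myh1 was 29.0% ± 6.12 and 21.1% ± 1.73 (SD, n = 3 each), a difference of -7.92 percentage points (exact permutation test, two-sided, p = 0.2). With 3 mice against 3 this test has 10 splits and cannot give a p under 0.1, so no share could pass 0.05.

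Myh2 held 2.28%, 2.42% and 9.50% in vehicle and 2.34%, 3.37% and 2.83% in BML-260, and its mean difference of -1.88 percentage points became 0.503 without vehicle replicate 3. Myh8 held between 0.856% and 1.07% in all libraries. Myh3 held 0.0338%, 0.0520% and 0.134% in vehicle and 0.0253%, 0.00984% and 0.0176% in BML-260, again without overlap (exact permutation test, p = 0.1, the smallest possible). The difference of -0.0557 percentage points was -0.0253 without vehicle replicate 3. Myh7 held 0.00238% and 0.00241% in vehicle replicates 1 and 2, 0.199% in vehicle replicate 3, and 0.0163%, 0.0228% and 0.0141% in the BML-260 libraries. Even at its highest, the slow isoform was a minute part of the heavy chain transcripts of this muscle.

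**Figure D2:**
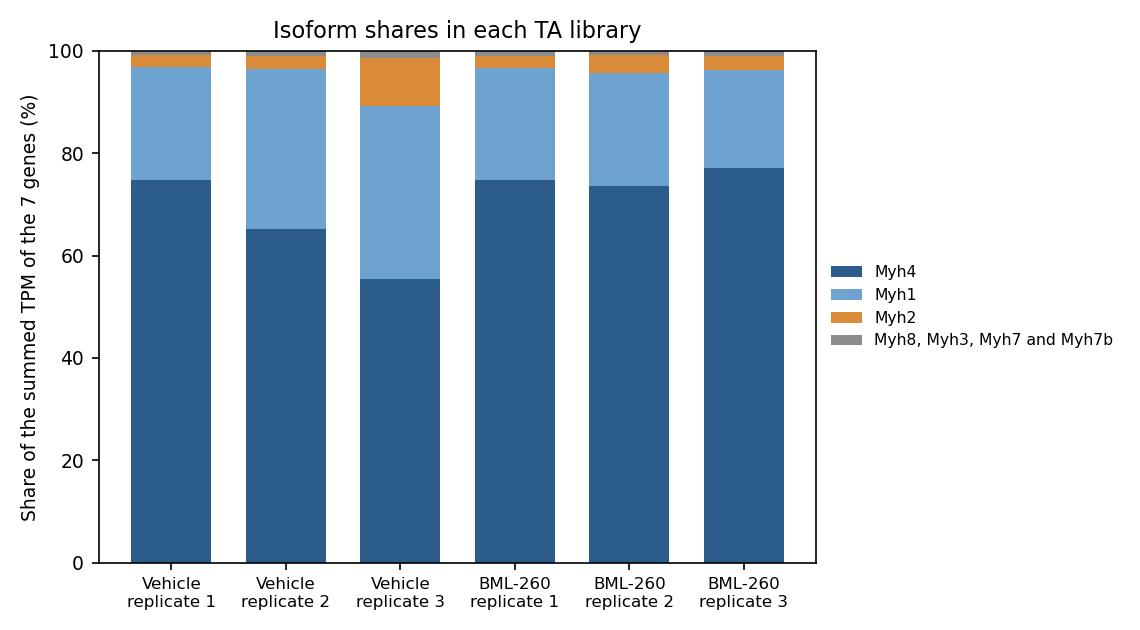
Share of the summed TPM of the 7 heavy chain genes (percent, stacked to 100) in each library. Myh4 ranges from 55.5% to 74.7% in the vehicle libraries and from 73.5% to 77.1% in the BML-260 libraries, and the grey cap of Myh8, Myh3, Myh7 and Myh7b is thin in all 6.

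Ratios between isoforms were compared within each library, where library scaling cancels. The ratio of Myh4 to Myh1 TPM was 3.39, 2.09 and 1.65 in vehicle and 3.40, 3.31 and 4.04 in BML-260. On the log2 scale the mean was 1.18 ± 0.53 with vehicle and 1.84 ± 0.15 with BML-260 (SD, n = 3 each), a difference of 0.66 (exact permutation test, two-sided, p = 0.2, adjusted p = 0.75 over the 5 ratios). It was 0.43 without vehicle replicate 3 and 0.95 without vehicle replicate 1. The groups overlapped because vehicle replicate 1 (3.39) lay above BML-260 replicate 2 (3.31). Myh4 exceeded Myh2 by 32.8, 27.0 and 5.84 times in vehicle and 31.9, 21.8 and 27.2 times in BML-260, and the log2 difference between groups of 0.62 turned to -0.16 without vehicle replicate 3. Myh1 exceeded Myh2 by 9.70, 12.9 and 3.55 times in vehicle and 9.36, 6.58 and 6.74 times in BML-260, a log2 difference of -0.03.

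The ratio of the developmental pair Myh3 and Myh8 to the summed fast isoforms was 0.00908, 0.0113 and 0.0116 in vehicle and 0.00942, 0.00874 and 0.00997 in BML-260, a log2 difference of -0.18 (exact permutation test, two-sided, p = 0.3, adjusted p = 0.75) that was -0.29 without vehicle replicate 1 and -0.11 without vehicle replicate 3. Myh8, whose level may include reads shared with Myh4 and Myh1, made up most of this pair in every library. Myh7 over the fast isoforms had a log2 ratio of -15.35 and -15.32 in vehicle replicates 1 and 2, -8.95 in vehicle replicate 3, and -12.57, -12.08 and -12.78 in BML-260. Its group difference of 0.73 (exact permutation test, p = 1.0) was 2.85 without vehicle replicate 3.

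**Figure D3:**
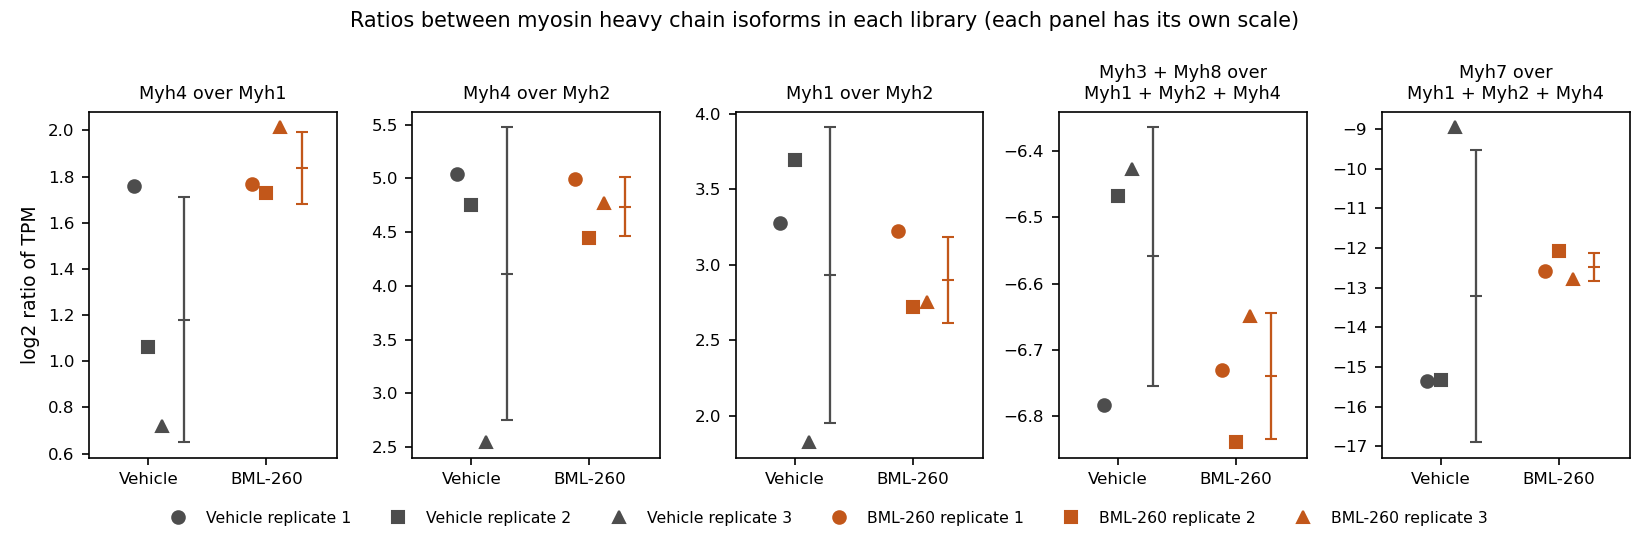
Log2 ratio of TPM for 5 pairs or sums of heavy chain isoforms in each library, with group means and SD bars beside the points and a separate scale in each panel. The group ranges overlap in every panel. Vehicle replicate 3 is the lowest vehicle library in the ratios of Myh4 to Myh1, Myh4 to Myh2 and Myh1 to Myh2, and the highest in the other panels.

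The summed TPM of the 7 genes was 11667, 14691 and 12716 in vehicle and 12047, 14969 and 16887 in BML-260, or 1.17% to 1.69% of all TPM in a library. The mean was 1.12 times higher with BML-260 (exact permutation test, two-sided, p = 0.4), within the spread of the replicates. On the scale of TMM-normalized CPM the sum was lowest in vehicle replicate 3 (33446 CPM, against 42928 and 56967 in the other vehicle libraries and 48513 to 60739 with BML-260), and the ratio of means was 1.22 (exact permutation test, two-sided, p = 0.3). The 7 genes took 4.02% to 5.82% of all counts in a library.

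Each gene was next tested across the 6 libraries with edgeR, in a fit over 16188 genes. A gene was called where its fold reached 1.3 and its unadjusted p was under 0.05. Of all tested genes 5.75% reached it (931 genes), 0.896% as higher and 4.86% as lower with BML-260. Of the 7 heavy chains 1 was called, Myh3. With edgeR no gene had an adjusted p under 0.05, while 966 had an unadjusted p under 0.05, and DESeq2 gave 95 genes (0.587%) and limma voom with quality weights 1 gene (0.00618%) with an adjusted p under 0.05.

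Myh3 fell by 1.66 on the log2 scale with BML-260 (SE 0.43, edgeR adjusted p = 0.631). DESeq2, which called 6.31% of all genes (5.19% as lower), gave it an adjusted p of 0.0139. Limma voom, which called 5.50% (3.92% as lower), gave an adjusted p of 0.404. Over all alternatives the adjusted p ranged from 0.0139 to 0.984. The gene was called in 15 of 15 alternative settings, always as lower, and its log2 fold change lay between -1.98 and -1.22 with each library left out. Without vehicle replicate 3 it was -1.22 (SE 0.34, edgeR adjusted p = 0.432). Myh3 was also the only heavy chain whose libraries did not overlap in CPM between groups, being lower in 3 of 3 BML-260 libraries, a pattern that 6.91% of all tested genes showed.

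The adult fast isoforms and Myh8 were not called. Myh4 had a log2 fold change of 0.48 (SE 0.38, edgeR adjusted p = 0.796), which was 0.24 (SE 0.19) without vehicle replicate 3 and positive in 15 of 15 alternatives. Myh1 had a log2 fold change of -0.18 (SE 0.32) and became 0.13 without vehicle replicate 2, the library with the most Myh1. Myh2 had a log2 fold change of -0.25 (SE 0.43) and became 0.40 (SE 0.22) without vehicle replicate 3. Myh8 had a log2 fold change of 0.17 (SE 0.26). With all 6 libraries, each of these 4 estimates was smaller than 1.3 times its standard error.

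The direction of Myh7 depended on a single library. With all 6 libraries its log2 fold change was -1.28 (SE 1.26, edgeR adjusted p = 0.811). Without vehicle replicate 3, Myh7 rose by 2.92 on the log2 scale (SE 0.26, edgeR adjusted p = 0.00232), as 1 of 6 genes with an adjusted p under 0.05 in that fit (0.0364% of 16502). Its mean TPM with BML-260 was 8.17 times the mean of vehicle replicates 1 and 2, which stood at 53 counts each, while vehicle replicate 3 was at 80.2 times that mean. DESeq2 gave Myh7 no p, and limma voom, which weighted vehicle replicate 3 at 0.219, gave a log2 fold change of 2.19 (SE 0.68, adjusted p = 0.554). Myh7b had a log2 fold change of 0.30 (SE 0.40) with all libraries and 0.86 (SE 0.33, edgeR adjusted p = 0.931) without vehicle replicate 3. In that fit 3 of the 7 heavy chains were called (Myh3 lower, Myh7 and Myh7b higher), beside 3.98% of all tested genes (1.06% as higher and 2.92% as lower).

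**Figure D4:**
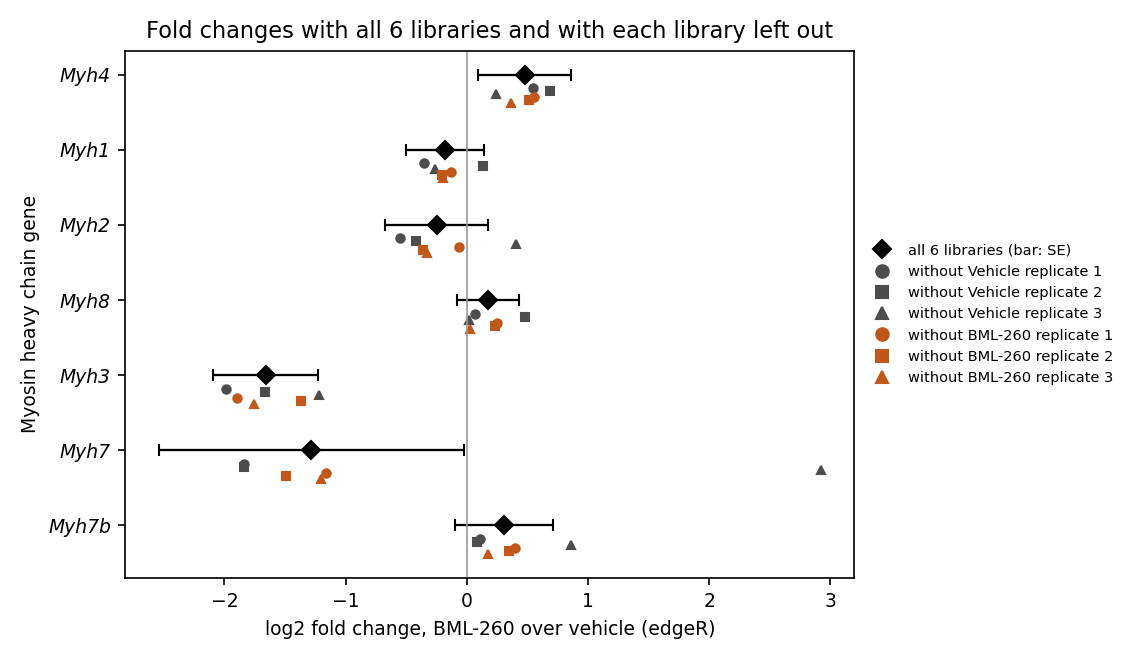
Log2 fold change of BML-260 over vehicle for the 7 heavy chain genes, as a black diamond with its standard error for all 6 libraries and as small symbols for each library left out (grey for vehicle, orange for BML-260). Myh3 stays between -1.98 and -1.22, while Myh7 moves from -1.28 to 2.92 when vehicle replicate 3 is left out.

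Myh3 belongs with genes of developing or regenerating muscle, of which 13 were listed and 11 tested. Of the 11, 6 were called as lower with BML-260 and none as higher, beside 4.86% of all tested genes called as lower. The median log2 fold change was -1.21 against -0.0039 over all genes. DESeq2 called the same number and limma voom 7. The list was chosen with earlier results of these data known, so these counts are a description and no test. Myogenin (Myog), a transcription factor of muscle differentiation, was at 7.89, 10.5 and 43.8 TPM in vehicle and 2.94, 3.89 and 6.64 TPM in BML-260, a log2 fold change of -1.91 (SE 0.51). Myf6, the related factor MRF4, was at 125, 147 and 334 TPM in vehicle and 67.6, 72.2 and 82.3 TPM in BML-260, a log2 fold change of -1.21 (SE 0.24). Both were highest in vehicle replicate 3 but lower in every BML-260 library than in every vehicle library.

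Chrna1, a subunit of the acetylcholine receptor of the neuromuscular junction, was at 5.28, 13.1 and 12.4 TPM in vehicle and 2.76, 3.39 and 3.66 TPM in BML-260 (log2 fold change -1.50, SE 0.31). The remaining called genes were Ncam1, a cell adhesion molecule of young and denervated fibers, with a log2 fold change of -1.34 (SE 0.42), the troponin gene Tnnt2, known from heart and embryonic muscle, with -1.34 (SE 0.47), and the myogenic factor Myod1 with -0.47 (SE 0.18). Chrng, the fetal receptor subunit, had an estimate of -1.70 (SE 1.14) on at most 1.40 CPM and was not called. Also not called were Myl4 (log2 fold change -0.73), Myf5 (-0.20), Actc1 (-0.040) and Pax7 (0.018). Of the called genes Myf6, Chrna1 and Myog had adjusted p-values of 0.00170, 0.00225 and 0.0144 with DESeq2, and with edgeR of 0.553, 0.553 and 0.649. Without vehicle replicate 3, 6 of 12 tested genes were called, all lower, and the median was -0.90 (-0.80 without vehicle replicate 2). These were not the same 6 genes: Tnnt2, at -0.89, was no longer called, and Mymk, tested only in that fit, was.

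Markers of immune cells were also lower with BML-260. Of all tested genes 4.86% were called as lower. Of 7 macrophage markers 6 were called as lower, with none at 0. Their summed level was 117, 121 and 317 CPM with vehicle and 85.7, 68.4 and 81.5 CPM with BML-260. All 3 tested neutrophil markers of 4 were called as lower. Their sum was 48.6, 7.24 and 167 CPM in vehicle and 1.86 to 3.43 CPM in BML-260, and Ly6g was at 0 in all but 1 library. Erythroid markers (2 of 3 called as lower) summed to 279, 325 and 882 CPM in vehicle and 209 to 292 CPM in BML-260. The erythroid ranges thus overlapped, with vehicle replicate 1 below the highest BML-260 library. The macrophage, neutrophil and erythroid sums were each highest in vehicle replicate 3, and calls of these markers without it are not reported here. Satellite cell markers summed to 7.64 to 9.55 CPM and 6.62 to 7.10 CPM, but only Vcam1 was called as lower (log2 fold change -0.49), and Pax7 and Calcr had estimates of 0.018 and 0.41. The part of these cells in the level of Myh3 was not tested.

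The slow fiber program, 13 genes that accompany Myh7 in slow fibers, had a median log2 fold change of -0.69 with all libraries and 0.18 without vehicle replicate 3. Of the 13 genes 10 were highest in that library. With all libraries 3 were called, each as lower: the calcium pump Atp2a2 (log2 fold change -0.96, SE 0.35), the Z-disc protein Myoz2 (-2.09, SE 0.91) and slow troponin I, Tnni1 (-1.57, SE 0.65). Of all tested genes 4.86% were called as lower. Without vehicle replicate 3, Myoz2 was at 0.18 and Tnni1 at -0.63, and neither was called. Atp2a2 kept a call at -0.38 (edgeR adjusted p = 0.991), barely past the fold threshold of 1.3. There 2.92% of all tested genes were called as lower and 1.06% as higher. In that fit the ventricular and slow light chain Myl2, whose TPM was 2.89, 3.59 and 423 in vehicle and 11.6, 46.7 and 31.0 in BML-260, was called as higher with a log2 fold change of 3.11, as were the slow troponins Tnnc1 (0.69) and Tnnt1 (0.74). Myl2 thus had the same order of libraries as Myh7, with the BML-260 mice between 2 low and 1 high vehicle mouse. Summed markers of other cell types were also highest in vehicle replicate 3: the 4 Schwann cell markers summed to 62.7 CPM there against 15.5 to 24.5 CPM in the other libraries, the 5 smooth muscle markers to 103 CPM against 62.8 to 82.7 CPM, and the 4 adipocyte markers to 16.7 CPM against 1.68 to 3.48 CPM. The adipocyte marker Lep was an exception, at 0 in vehicle replicate 3 and above 0 in the other 5 libraries. None of these markers was called, and their part in the level of Myh7 was not tested. The 4 endothelial markers (114 to 141 CPM in vehicle, 118 to 141 CPM in BML-260) and the 5 fibroblast markers (508 to 845 CPM and 474 to 819 CPM, 1 called as lower) were not highest in that library.

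The fast fiber program, 12 genes that accompany Myh1, Myh2 and Myh4, had 12 estimates above 0, a median log2 fold change of 0.32, and no call with edgeR (0 at an unadjusted p under 0.05). DESeq2 and limma voom each called Mybpc2, a fast myosin binding protein, as higher (1.12% and 1.58% of all genes were), with an edgeR log2 fold change of 0.46 (SE 0.27). The calcium buffer parvalbumin (Pvalb) was at 11885, 8214 and 2511 TPM in vehicle and 12193, 11156 and 11434 TPM in BML-260, a log2 fold change of 0.66 (SE 0.57). The calcium store protein Casq1 was at 1536, 1060 and 381 TPM in vehicle and 1603, 1333 and 1355 TPM in BML-260, a log2 fold change of 0.58 (SE 0.52). In CPM 11 of the 12 genes were lowest in vehicle replicate 3, and without it the median was 0.09. In TPM fewer were: Actn3, Atp2a1, Mybpc2, Tnni2 and Tnnt3 were lowest in vehicle replicate 2, and the rest in vehicle replicate 3. Tnni2 and Tnnt3 were even highest in vehicle replicate 3, at 17667 and 23582 TPM.

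Among 16 regulators of fiber type, Mafa was called as higher and Vgll2 as lower, beside 0.896% and 4.86% of all tested genes. Mafa, a large Maf factor of the group known to drive the 2B program, was at 10.3, 8.18 and 9.59 TPM in vehicle and 12.2, 11.3 and 18.8 TPM in BML-260, a log2 fold change of 0.73 (SE 0.23, edgeR adjusted p = 0.699). Every BML-260 library was above every vehicle library in TPM, as for 2.07% of tested genes, and the call held without vehicle replicate 3 at 0.59. The related factor Maf had a log2 fold change of 0.42 (SE 0.25) and was not called. Vgll2, a cofactor of TEAD proteins, was at 14.7, 20.2 and 33.2 TPM in vehicle and 13.0, 13.2 and 15.9 TPM in BML-260, a log2 fold change of -0.50 (SE 0.20) that was not called without vehicle replicate 3 (-0.34).

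Of 9 genes for folding, assembly and turnover of myosin, 1 was called, as lower, beside 4.86% of all tested genes. This was the ubiquitin ligase Trim63 (MuRF-1), for which heavy chains are known substrates. It was at 242, 177 and 1082 TPM in vehicle and 159, 181 and 194 TPM in BML-260, a log2 fold change of -1.16 (SE 0.48) that came to -0.25 without vehicle replicate 3 and was not called there or by DESeq2. The chaperone Unc45b, which folds the myosin head, was at 123, 92.4 and 94.7 TPM in vehicle and 113, 128 and 129 TPM in BML-260 (log2 fold change 0.37, SE 0.22). Myom3, an M-band protein, had a log2 fold change of -1.09 (SE 0.55), with 67.1 TPM in vehicle replicate 3 against 7.53 to 21.7 TPM elsewhere.

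Of the 6 tested other heavy chains, smooth muscle, nonmuscle and cardiac genes among them, edgeR called 0 (0 at an unadjusted p under 0.05), as did DESeq2 and limma voom. Myh13, the last gene of the chromosome 11 cluster, was at 6.89 to 9.19 TPM in all libraries, with a log2 fold change of 0.19 (SE 0.18). Myh6, the cardiac gene next to Myh7, was at 0.182, 0.401 and 1.85 TPM in vehicle and 0.313, 0.464 and 0.698 TPM in BML-260 (log2 fold change -0.41, SE 0.63). Nonmuscle Myh10 was at 3.59, 4.58 and 12.4 TPM in vehicle and 3.50, 4.77 and 4.92 TPM in BML-260 (log2 fold change -0.39, SE 0.30). Both changed sign without vehicle replicate 3, with log2 fold changes of 0.71 for Myh6 and 0.065 for Myh10.

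**Figure D5:**
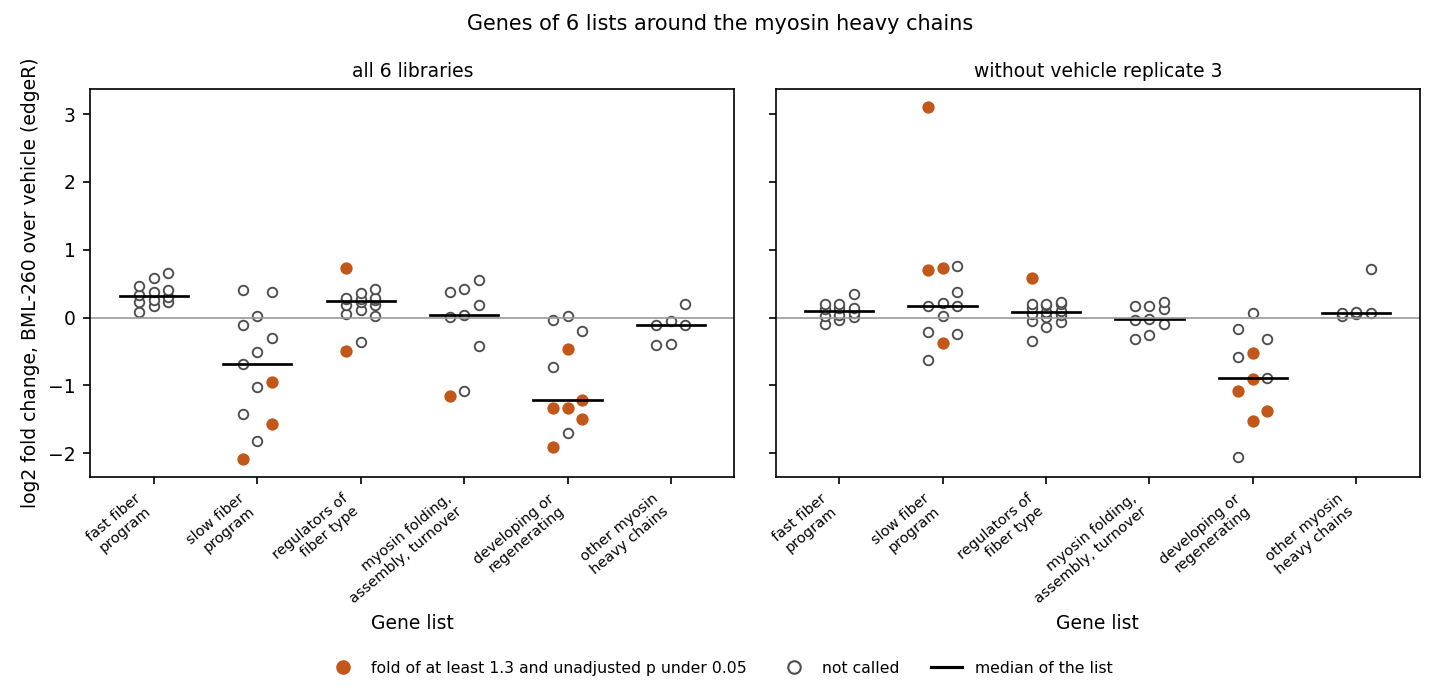
Log2 fold change of BML-260 over vehicle for the genes of 6 lists that were tested with all 6 libraries. All 6 libraries are on the left, and the fit without vehicle replicate 3 is on the right (filled: called at a fold of 1.3, line: median). Genes tested only without that library, such as Mymk, are not drawn. The drawn median of the slow fiber program moves from -0.69 to 0.18, and that of developing or regenerating muscle from -1.21 to -0.89.

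A pair of noncoding genes in the chromosome 11 cluster, picked after their values were seen, varied more than the fast isoforms around them. 2310065F04Rik, between Myh3 and Myh2, was at 48.2, 22.6 and 4.45 TPM in vehicle and 51.1, 53.1 and 46.3 TPM in BML-260 (log2 fold change 1.02, SE 0.71, edgeR adjusted p = 0.788). Myhas, antisense to Myh1, was at 30.5, 28.3 and 9.26 TPM in vehicle and 34.7, 42.1 and 49.8 TPM in BML-260 (log2 fold change 0.93, SE 0.47, edgeR adjusted p = 0.788). Both were lowest in vehicle replicate 3, as was Myh4, and neither was called. Without that library their log2 fold changes were each 0.49.

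For the main isoforms, the genes with the most similar pattern over the 6 libraries were sought among 6935 genes with a mean of at least 10 CPM, by Pearson's r of log2 CPM, given as a description of libraries that share their scale factors. For Myh4 these were Dnaaf5 (r = 0.997), Mir1a-1hg, the host transcript of the muscle microRNA miR-1a (0.994), and Krba1 (0.992). For Myh1 they were Atp11b (0.988), Nkap (0.984) and the potassium channel gene Kcnj2 (0.982). For Myh2 they were Sh3rf2 (0.990), the insulin receptor gene Insr (0.985) and Kansl3 (0.983). For Myh7 the first was Myl2 (0.982), ahead of Ncbp3 (0.971) and Zc3h18 (0.970), and for Myh3 they were the collagen gene Col1a1 (0.984), Taf9 (0.977) and Atp1b3 (0.976). Without vehicle replicate 3 the r of these 15 genes was between 0.931 and 0.998 over 5 libraries, but their ranks fell to between 2 and 42, so the genes named depend on that library.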

How the data were processed

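TA muscle of 3 mice given vehicle and 3 given BML-260 was sequenced as total RNA, with a stranded library kit. The submitters' processing notes name Trimmomatic 0.38, StringTie 2.1.3b, HISAT2 2.1.0 and, beside it, Bowtie2 2.3.4.1 and the build mm10. The authors deposited raw counts per gene (39522890 to 56998875 counts per library) and TPM values, which were scaled for transcript length and library total. Tables were joined by gene identifier. Groups and replicate numbers came from the sample titles. Nothing in the labels says more about the source of the replicates than the numbers, so p-values measure the spread between these samples.

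Counts were analysed with edgeR 4.0.16 in R 4.3.3. Genes were kept by filterByExpr (16188 genes, 99.9% of counts), scaled by TMM and tested by the quasi-likelihood F-test with Benjamini-Hochberg adjustment over all tested genes, and the SE was the log2 fold change over the square root of F. DESeq2 1.42.0 and limma 3.58.1 served as alternatives, beside other scalings, other filters, log2(TPM + 1), log2(TPM + 0.1), a replicate block and leaving out each library. The limma tests on TPM are on the log2(value + pseudocount) scale, which understates changes of low genes. The edgeR, DESeq2 and limma voom tests were run on simulated counts in which no library stood apart. This does not bear on vehicle replicate 3, and the permutation tests were not simulated. Shares, ratios and totals were compared by exact permutation tests. Promoters were read from RefSeq (GRCm38.p6), and gene positions and transcripts from the GENCODE annotation of GRCm38. Coding sequences were aligned with MAFFT 7.526, and figures were drawn with matplotlib 3.10.9.

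The 7 genes, the gene lists and the marker lists were chosen with earlier results of these data known. The genes named were the 7 heavy chains, every listed gene called (a fold of at least 1.3 and an unadjusted p under 0.05), the 2 tested genes of each list with the largest absolute log2 fold change, and for 5 isoforms the 3 genes with the highest r, passing over uncurated names. Any other gene was named after its values were seen. Values of some listed genes are not reported here.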

Additional observations from a re-analysis of the deposited data

How the results depend on the processing

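Myh3 kept its direction and its call in all 15 alternatives, and Myh4 kept its direction and stayed uncalled in all 15. The number of genes called was 931, and became 1416 without a filter and 503 with limma on log2(TPM + 1), and 503 to 2223 with a library left out (2223 without vehicle replicate 1 and 503 without BML-260 replicate 2). Calls among the 7 heavy chains numbered 1 to 3 with a library left out and 2 with limma voom and quality weights. The 2 TPM scales moved the median of all genes to -0.098 and -0.139 on the log2 scale, and changes on them are relative to that.

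With a library left out, log2 fold changes ranged from -0.36 to 0.13 for Myh1, -0.55 to 0.40 for Myh2, -1.84 to 2.92 for Myh7 and 0.081 to 0.86 for Myh7b (called without vehicle replicate 3). With limma voom they were 0.18 for Myh2, 2.19 for Myh7 and -0.0041 for Myh8, and on log2(TPM + 0.1) 0.68 for Myh7. Differences of medians in share were 0.414 percentage points for Myh2, 0.0138 for Myh7 and 0.000871 for Myh7b, against ranges of -3.11 to 0.503, -0.0832 to 0.0153 and -0.00104 to 0.00111 with a library left out. The log2 ratio differences ranged from -0.16 to 1.09 (Myh4 over Myh2), -0.59 to 0.35 (Myh1 over Myh2) and -0.34 to 2.85 (Myh7 over the fast isoforms, which was -0.18 with a pseudocount of 1 TPM). Counts per exon base, an alternative added after the values were seen, changed the direction of no share. Counts per protein residue were not run, because no protein table was used here.

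With a library left out, the genes called ranged from 0 to 2 in the fast fiber program, 0 to 7 in the slow fiber program, 1 to 3 among regulators, 0 to 5 for folding, assembly and turnover, and 0 to 1 among other heavy chains. Medians ranged from -0.99 to 0.18 in the slow fiber program, -0.039 to 0.13 for folding, assembly and turnover and -1.40 to -0.80 for developing or regenerating muscle. A fit with a library left out also has fewer libraries and another set of tested genes. The cause of each change was not tested.

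The correlations of deviations for same-numbered libraries were low, at 0.16, 0.054 and 0.11, but all other pairs were below 0 (-0.12 to -0.021). Each library thus correlated best with its own number, and whether the numbers pair the libraries was not settled. With a replicate block 1057 genes were called, Myh3 stayed called at -1.62, and Myh7 was at 1.24 with no call. Depth limited Myh7b (28 to 120 counts) most.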
